A study of Mus musculus with 74 samples.

Results

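Genome architecture mapping (GAM) scores which parts of the genome lie in a thin slice through a nucleus, and windows that no slice ever scores leave holes in every map built from it. The windows described here are the 40 kb windows of chromosomes 1 to 19 that start at or beyond 3 Mb and were called negative in all 74 libraries. They were chosen by these calls themselves, so their own detection is a description and was not tested. Of 60391 autosomal windows from 3 Mb, 1934 met the rule (3.2%), which amounts to 77.2 Mb. The whole table holds 68162 windows.

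The libraries came from 46C-ES cells, a mouse embryonic stem cell line of 129/Ola background, derived from E14tg2a, that carries green fluorescent protein knocked in at Sox1. The cells were grown with serum and LIF and then kept in serum-free ESGRO medium before freezing. Each library held the DNA of 1 nuclear profile, the part of a single nucleus caught in a cryosection, amplified with the WGA4 kit and prepared as a Nextera library, and the deposited table gives a call of present or absent for each window of the mm9 assembly. All 74 libraries form 1 group, there is no other treatment or genotype, and nothing in the labels says that they came from separate cultures. The calls keep no reads, so the depth per library is unknown. Genome coverage ran from 0.0205% to 12.4% of windows, with a median of 5.16%, and 5 libraries lay under 1%.

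A window can go undetected because few slices pass through it or because its reads cannot be placed. Reference assemblies contain stretches of unknown bases where the sequence was never resolved, and families of recently copied genes whose members are nearly identical, so that a short read fits several places equally well. In the mouse such families include receptors of the vomeronasal organ, which senses pheromones, and clusters of small nucleolar RNAs, which guide chemical modification of other RNAs.

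To show what these windows look like, sequences were read from the NCBIM37 assembly (the sequence of mm9), plus strand, for 3 runs of copied sequence and 1 run of unique sequence. Capitals mark a word of 50 bases, and the lower-case letters are the 35 bases on either side. In the copied runs the word shown was the most frequent among words in which no 8 bases recur and of which at least 90% of copies lie inside the run, and the second line is the farthest copy on the same strand of that run. The 2 copies from a run of predicted genes on chromosome 2 lie in coding exons of Gm14391 and Gm14308, chr2:175021074-175021193 and chr2:176408042-176408161.
Gm14391: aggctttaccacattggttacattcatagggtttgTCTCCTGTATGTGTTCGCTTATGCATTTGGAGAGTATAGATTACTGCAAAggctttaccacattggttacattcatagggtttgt
Gm14308: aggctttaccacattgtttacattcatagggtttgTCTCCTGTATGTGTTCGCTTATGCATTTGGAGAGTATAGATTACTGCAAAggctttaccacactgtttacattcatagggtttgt
The word occurred 25 times in the assembly, 24 of them in the run, and these 2 stretches of 120 bases lay 1387 kb apart and differed at 3 bases. The 2 copies from a run with type 1 vomeronasal receptor genes on chromosome 7 lie in an intron of Gm6882, chr7:22218102-22218221, and between genes, chr7:22841662-22841781.
Gm6882 intron: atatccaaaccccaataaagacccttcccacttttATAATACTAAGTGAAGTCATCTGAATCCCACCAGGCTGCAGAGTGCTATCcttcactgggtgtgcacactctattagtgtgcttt
between genes: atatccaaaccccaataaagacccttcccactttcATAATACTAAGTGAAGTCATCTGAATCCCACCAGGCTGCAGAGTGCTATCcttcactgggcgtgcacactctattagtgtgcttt
This word occurred 3 times, all in the run, and the stretches lay 624 kb apart and differed at 2 bases. The 2 copies from the run that holds SNORD115 genes lie between genes, chr7:66643851-66643970 and chr7:66839832-66839951.
first copy: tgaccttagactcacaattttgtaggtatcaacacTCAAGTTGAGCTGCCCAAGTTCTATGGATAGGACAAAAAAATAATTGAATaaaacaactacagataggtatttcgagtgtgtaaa
last copy: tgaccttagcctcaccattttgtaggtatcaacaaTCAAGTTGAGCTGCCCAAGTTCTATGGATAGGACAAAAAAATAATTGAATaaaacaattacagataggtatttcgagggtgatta
This word occurred 63 times, 59 of them in the run, and the stretches differed at 8 bases. Of the 71 words of 50 bases in a copied stretch, 23 occurred once in that of the Gm6882 intron and 18 in the first SNORD115 copy. In the other copied stretches 0 did. The contrasting stretch lies in an intron of Skint6 on chromosome 4, chr4:112779966-112780085, and was chosen so that all its 71 words occur once.
Skint6 intron: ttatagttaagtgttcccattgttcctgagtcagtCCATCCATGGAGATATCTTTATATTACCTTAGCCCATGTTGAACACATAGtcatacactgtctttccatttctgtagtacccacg
No library detected the window around any of the 7 stretches, including the last.

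Never-detected windows were spread very unevenly over chromosomes. Chromosome 7 held 444 of 3739 windows (11.9%), which was 23% of all members. Chromosome 8 followed with 221 windows (6.87%) and chromosome 14 with 191 (6.25%). The lowest shares were 0.661% on chromosome 9 (20 windows), 0.82% on chromosome 18 (18 windows) and 1.05% on chromosome 3 (41 windows). The composition differed as well as the number. On chromosome 7, 188 members had 50% or more unknown bases, 176 had known sequence of which under 50% of 50-base words were unique in the assembly, and 80 had mostly unique sequence. On chromosome 14 the low-unique windows dominated with 118 of 191, whereas on chromosome 8 there were 97 with unknown bases, 11 with low-unique sequence and 113 with mostly unique sequence.

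**Figure D1:**
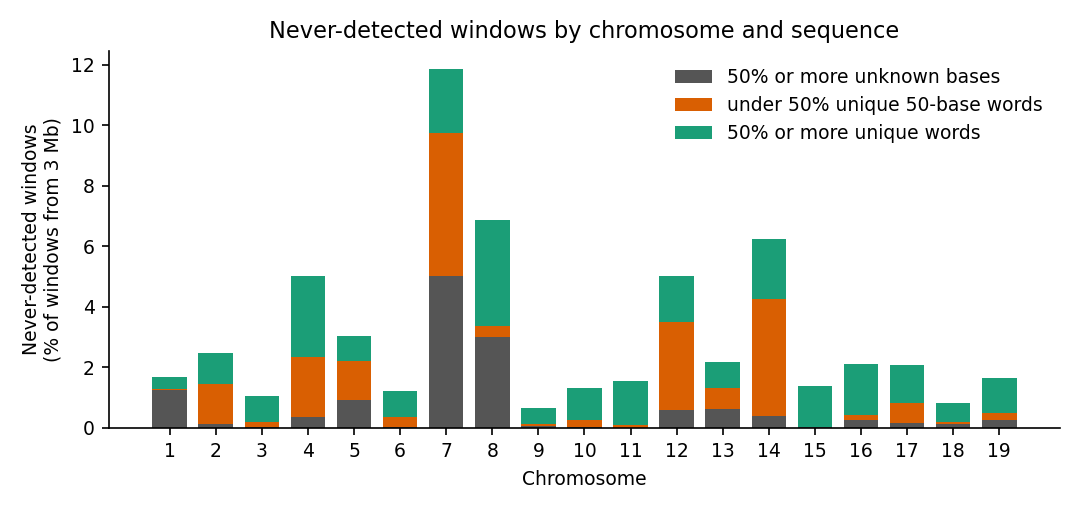
Percent of the 40 kb windows from 3 Mb of each autosome that were negative in all 74 libraries, stacked by sequence: 50% or more unknown bases, under 50% unique 50-base words, and 50% or more unique words. Chromosome 7 reaches 11.9% and chromosome 9 stays at 0.661%; on chromosome 8 most of the bar is unknown bases or unique sequence.

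Chromosomes also differed in how often their unique windows were detected. Among windows with 90% or more unique words, 3.28% were never detected on chromosome 8, where such windows were positive in 3.54 libraries on average, and 0.224% on chromosome 1, where the average was 5.38. Both quantities come from the same calls, so they are not separate evidence. From each chromosome's own detection in each library, 367 of these unique windows would have been missed with windows taken as independent, and 468 were. On chromosomes 7, 8 and 14, which had the highest shares of members, 33, 50.3 and 27.3 were expected and 45, 72 and 33 observed. On chromosomes 9, 18 and 3, which had the lowest, 9.92, 12.7 and 17.9 were expected and 6, 8 and 20 observed. Chromosome 11, with 14.5 and 34, and chromosome 1, with 9.84 and 7, are named in addition.

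Windows just inside and just outside the rule differed in sequence. The 3645 windows positive in exactly 1 library had a mean of 0.512% unknown bases and 84.5% unique words, against 24.4% unknown bases and 52.2% unique words among the 1934 positive in none. For windows positive in 2 libraries the share of unique words was 88.6%, and for those in 3 to 10 libraries it lay between 90% and 92.3%. Beyond that it was 90.4% at 11 libraries and 91.7% at 12. It fell to 86.7% at 13 (31 windows) and 79.9% at 14 or more (41 windows). Of the members, 470 had at least 50% unknown bases, among 528 such windows in all, and 408 of them held no known base. Base composition of the known sequence was close, with a median GC content of 40.9% in members and 41.4% in detected windows.

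Read the other way, detection fell away as sequence became less unique. Windows with at least 50% unknown bases went undetected in 89% of cases, and windows with under 10% unique words in 80.9% (495 of 612). The share was 24.7% at 10 to 25% unique words, 9.8% at 25 to 50%, 2.86% at 50 to 75%, 1.73% at 75 to 90% and 1.15% at 90% or more. The mean number of positive libraries rose over the same order from 0.252 ± 0.86 to 4.5 ± 2.2 (SD over windows). Whether the placement of reads accounts for this relation was not tested. The classes also fell at different rates as libraries were added. Averaged over all orders of adding them, the undetected share of windows with no unknown base and 90% or more unique words fell from 34.9% at 17 libraries to 5.04% at 49 and 1.15% at 74, whereas that of windows with under 10% unique words fell from 92.5% to 84.7% and 80.9%.

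**Figure D2:**
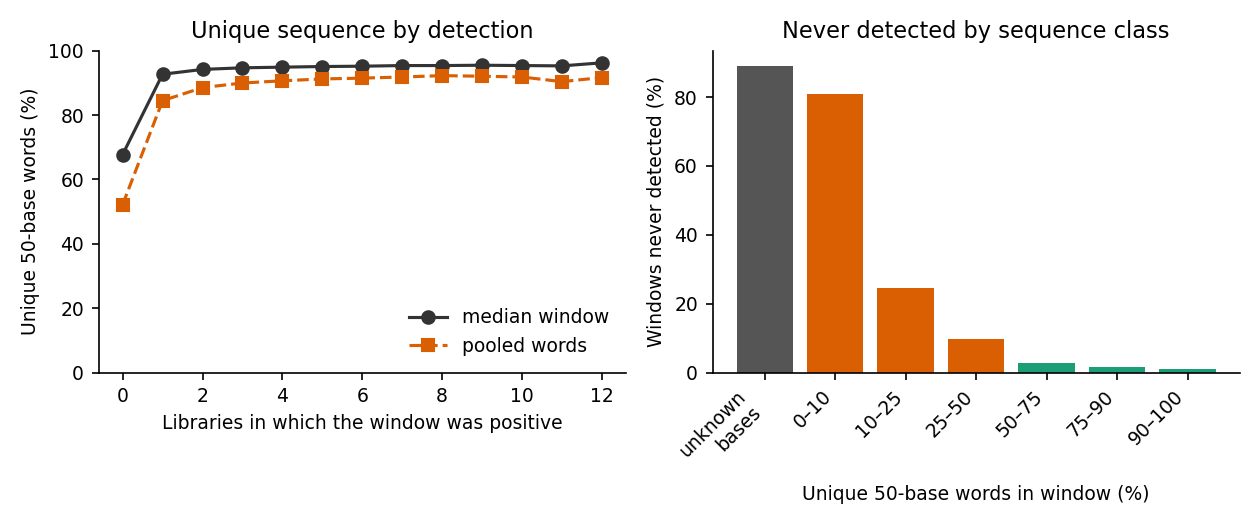
Left, percent of 50-base words that are unique in the assembly against the number of libraries in which a window was positive, as the median window and as pooled words; the value at 0 libraries is the never-detected set. Right, percent of windows never detected in classes of unknown bases (grey) and of unique words; it falls from 89% and 80.9% to 1.15%.

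**Figure D3:**
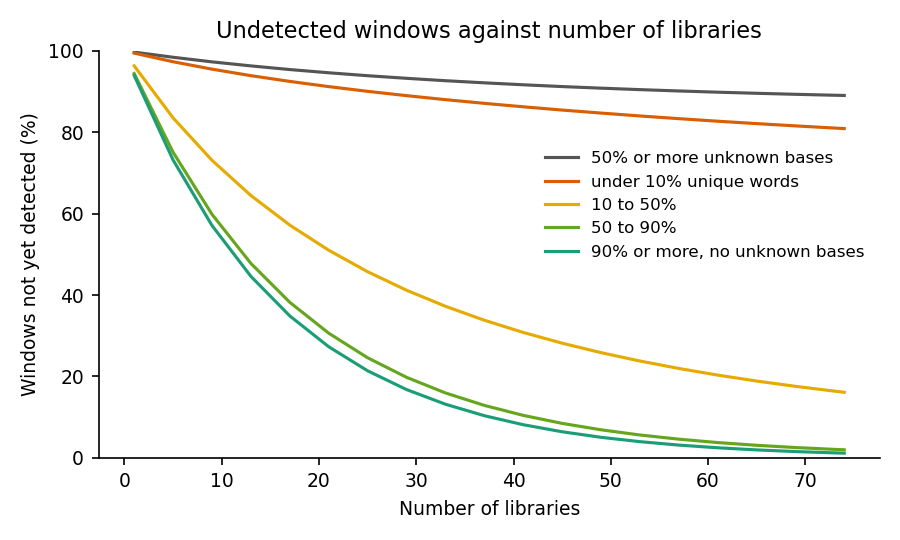
Percent of autosomal windows not yet detected against the number of libraries, averaged exactly over all choices of that many of the 74 libraries, for 5 sequence classes. Windows with 90% or more unique words approach 0, and windows of unknown bases and windows with under 10% unique words stay above 80%; those with 10 to 50% unique words end at 16.1%.

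Members formed 915 runs of consecutive windows. Single-window gaps made up 713 runs and 36.9% of members, runs of 2 to 4 windows 147 runs and 18.4%, and runs of 5 or more windows 55 runs and 44.7%. The 10 longest runs alone held 488 windows, 25.2% of members. Sequence changed with run length. Pooled over windows, 78.8% of words were unique in single-window gaps, 52.8% in runs of 2 to 4 and 10.7% in runs of 5 or more, while words with 2 to 10 copies rose from 10.8% to 31.6% and 58.5%. Unknown bases averaged 3.31%, 8.32% and 48.3%. Words with over 100 copies, as interspersed repeats have, stayed at 6.51%, 6.8% and 6.95%, against 4.47% in detected windows.

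Counting alone was asked how many such runs it gives. With every window independent, the libraries' coverages led to 686 single-window gaps, and with each library treated as a 2-state chain, in which positive windows come in stretches, to 559. Scaling each library by the detection of the 10 flanking windows gave 1479. The observed 713 lay between these, and 5 of them were the first or last window examined on a chromosome and have no second neighbour. The 3 expectations differ by over 1.5 times, so no number of single-window gaps beyond counting can be stated for all windows together. The flank-scaled value is raised by scatter in a mean of 10 windows, which adds to the expected number of zeros. Real differences in local detection add to it as well. How much each adds was not tested.

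The comparison was then made within classes of sequence, taking windows of a class as independent. The expected numbers follow in the order of each class's own detection, a model added after the data were seen that draws on the same calls, then the genome-wide coverages, then the flanking windows. Windows with 90% or more unique words gave 353 single-window gaps with both neighbours detected, and the expected numbers were 369, 462 and 968. Windows with 75 to 90% unique words gave 170, against 164, 154 and 345. Those with 50 to 75% gave 68, against 67.2, 42.7 and 104, those with 25 to 50% gave 20, against 17.4, 4.84 and 23, and those with 10 to 25% gave 31, against 21.5, 2.63 and 24.8. Windows with under 10% unique words gave 42, against 59.6, 1.07 and 13.1, and windows with at least 50% unknown bases gave 24, against 44.3, 0.663 and 1.52. The models gave different numbers in every class. The observed number was below all 3 expectations for 90% or more unique words, above all 3 for 10 to 25%, and between the lowest and the highest in the other classes. The 10 windows that flank single-window gaps were positive in 2.75 ± 1.11 libraries (SD over gaps), compared with 4.38 ± 1.48 around detected windows. The gaps were chosen on these same calls. Where positive windows come in stretches, as in the chain, that choice by itself lowers the value around gaps. The difference is a description and was not tested.

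Longer runs exceeded every expectation that was computed for them. For runs of 2 windows the chain gave 60.3 and 100 were found, for 3 windows 6.51 and 32, and for 4 windows 0.703 and 15. For runs of 5 or more it gave 0.0851, and 55 were found. These expectations assume the same coverage along the genome, which the chromosome values show not to hold.

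**Figure D4:**
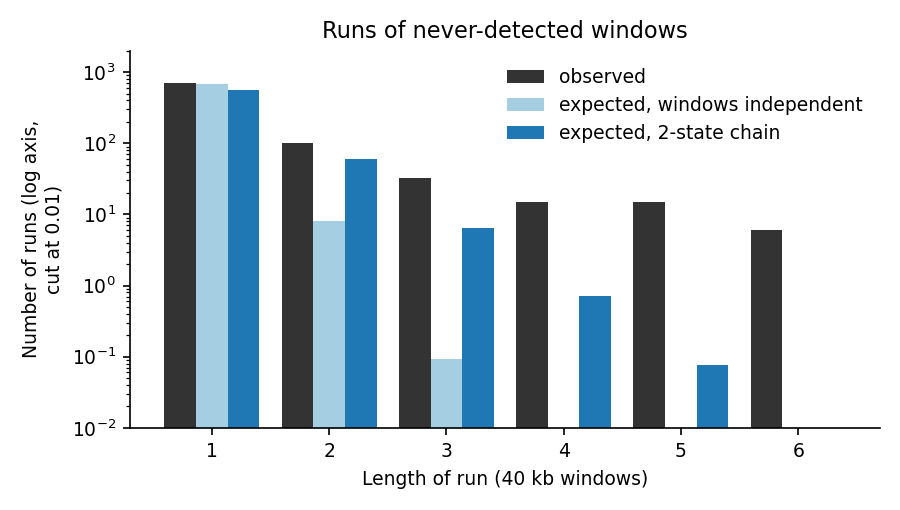
Number of runs of 1 to 6 consecutive never-detected windows on a log axis: observed (black), expected with independent windows (light blue) and expected with each library a 2-state chain (dark blue). Bars that would end below 0.01 are not visible. The bars lie closest at 1 window (713, 686 and 559), and the observed bar is above both others at 2 windows (100, 7.98 and 60.3) and at 3 windows (32, 0.0928 and 6.51).

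The longest runs were gaps of the assembly. The longest of all, 175 windows at chr7:39360001-46360000, had 99.95% unknown bases. Runs of 50 windows at chr8:20040001-22040000, 49 at chr1:85360001-87320000, 41 at chr8:56240001-57880000 and 22 at chr5:25440001-26320000 had between 99.94% and 100% unknown bases, and none of these 5 runs touched an annotated gene. Detection returned quickly outside such gaps. Over the 10 runs of 5 or more windows with at least 50% unknown bases, the adjoining windows were positive in 3.35 ± 2.89 libraries (SD, 20 windows) and those 2 to 5 windows away in 5.43 ± 3.22.

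Most other long runs were sequenced but copied. Of the 55 runs of 5 or more windows, 10 had at least 50% unknown bases, 39 had known sequence with under 25% unique words, 5 had 70% or more and 1 lay between. The longest, 39 windows at chr2:175000001-176560000, touched 47 genes, 45 of them named only as predicted genes, such as Gm14443, Gm14391, Gm14442 and Gm14438, and 0.465% of its words were unique when counted at every base. The median word had 12 copies. For 66.7% of words all copies lay within 5 Mb but not all in the run, for 19.6% all lay in the run, and 13.2% had a copy on another chromosome. The copies shown above from Gm14391 and Gm14308 belong to this run.

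Genes of both vomeronasal receptor families lay in long runs on chromosome 7, although most members lay elsewhere: 47 of 259 Vmn1r genes (18.2%) and 31 of 179 Vmn2r genes (17.3%) touched a never-detected window, against 4.27% of all autosomal genes. These receptors are expressed in sensory neurons of the vomeronasal organ, the first family with short and the second with long extracellular ends. A run of 34 windows at chr7:22160001-23520000 touched 18 Vmn1r genes and pseudogenes of 40 genes, among them Vmn1r130, Vmn1r132, Vmn1r135 and Vmn1r137, and a run of 19 windows at chr7:20800001-21560000 touched 12 more of 22, including Vmn1r100, Vmn1r101, Vmn1r103 and Vmn1r104. In these runs 0.96% and 0.763% of words were unique, and 72.4% and 75.3% had copies beyond the run but none farther than 5 Mb from it. A run of 31 windows at chr7:7560001-8800000 had 16.1% unknown bases and touched 7 Vmn2r genes or pseudogenes, such as Vmn2r34, Vmn2r35 and Vmn2r36, beside 26 predicted genes.

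The remaining copied runs differed in where their copies lay. In 20 windows at chr14:3240001-4040000, with predicted genes such as Gm2956, Gm4904, Gm2963 and Gm1973, 45.5% of words had all copies on the same chromosome with some beyond 5 Mb. In 18 windows at chr4:42120001-42840000, which hold the chemokine genes Ccl21a, Ccl21c and Ccl19, whose products guide lymphocytes, and the receptor gene Il11ra2, 66.3% of words had copies outside the chromosome in unplaced sequence only. In 9 windows at chr14:26720001-27080000, with Plac9, Cphx and the homeobox gene Duxbl, 63.5% of words had all copies in the run itself and the median word had 3. In 8 windows at chr2:100280001-100600000, with the predicted genes Gm13812 and Gm13810, this was 77.2%, with a median of 2 copies. The 27 windows at chr12:23320001-24400000 and the 12 windows at chr7:33440001-33920000 touched 10 and 3 genes, had 3.45% and 1.93% unique words, and for 63.9% and 60.3% of their words all copies lay within 5 Mb but not all in the run. Around copied runs detection stayed low, at 2.27 ± 1.5 libraries in the adjoining windows (SD, 75 windows) and 2.53 ± 2.32 at 6 to 15 windows, where 49.4% of words were unique.

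Only 5 runs of 5 or more windows held 70% or more unique words, and 3 of them stood together over the Skint genes of chromosome 4. Skint genes encode membrane proteins of the butyrophilin-like kind, and Skint1 is required for the selection of a class of gamma-delta T cells of the skin. Between chr4:111720001 and 113280000, 32 of 39 windows were never detected. The other 7 were positive in at most 3 libraries. The region begins and ends with a never-detected window, and the 32 were chosen for having no call. Its detection, also against its surroundings, is therefore a description and was not tested. The region had no unknown base, 83% of its words were unique, and no window in it fell below 59.7%. It gave 11 positive calls from 6 libraries, 2 calls in f13 and 9 in f14 libraries, where the mean detection of autosomal windows would give 167. Detection was 0.282 ± 0.686 libraries in the region and 2.52 ± 1.18 in the 50 windows within 1 Mb on either side (SD over windows), none of which was undetected and of which 87.3% of words were unique. GC content was 37.5% in the region and 40.4% around it.

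Skint4, Skint9 and Skint6 lay wholly in never-detected windows, Skint3, Skint10 and Skint5 touched them, and Skint8, Skint7, Skint1, Skint2 and Skint11 did not. The longest run there, 17 windows at chr4:112440001-113120000, covers Skint6 and the start of Skint10. The remaining 2 unique runs were 5 windows at chr14:108760001-108960000 with 89.3% unique words and 6 windows at chr17:40080001-40320000 with 70.3%, and neither touched a gene with a family name. The reference sequence is that of the C57BL/6J strain, the cells are of 129/Ola background, and whether the cells carry these regions was not tested.

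**Figure D5:**
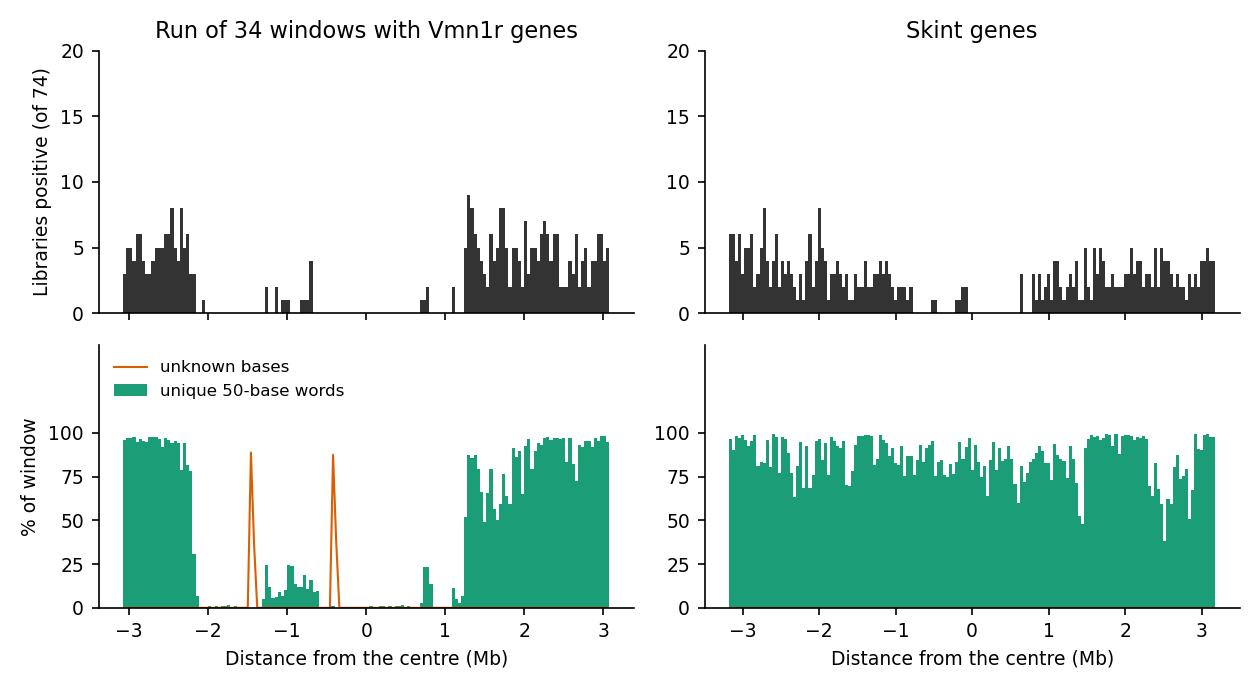
Number of libraries in which each 40 kb window was positive (top) and percent of unique 50-base words and of unknown bases (bottom) against the distance in Mb from the centre of a copied run with Vmn1r genes (left) and of the Skint region (right). Both centres hold windows with no call, the left with 0.98% unique words and the right with 83%.

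To see which gene families lie in these windows, 48 lists were formed by gene symbol. Of 34653 annotated autosomal genes, 4.27% touched a never-detected window and 3.47% had their midpoint in such a window. Among the 40 lists with at least 10 genes, 6 had 20% or more touching, and 18 had none. Lists by symbol miss members that carry only predicted gene symbols: of the immunoglobulin and T cell receptor segments so named, 12 of 101 on chromosome 12 and 24 of 109 on chromosome 14 touched a never-detected window and are counted as predicted genes. By the share touching, which long genes meet more easily, the Skint genes led with 6 of 11 (54.5%). Alpha-defensins, antimicrobial peptides of the gut, followed with 11 of 29 (37.9%), among them Defa21, Defa23, Defa22 and Defa20 on chromosome 8. Small nucleolar RNAs of the C/D box kind had 119 of 343 (34.7%), and these were 97 copies of SNORD115 and 22 of SNORD116 on chromosome 7, the clusters of the Prader-Willi region. Major urinary proteins, carriers of scent molecules in mouse urine, had 12 of 42 (28.6%), from Mup11 and Mup12 to Mup13 and Mup14 on chromosome 4. T cell receptor alpha and delta segments had 16 of 60 (26.7%), all of them Trav segments on chromosome 14, and Mas-related receptors of sensory neurons had 4 of 20 (20%), namely Mrgpra2a, Mrgpra2b, Mrgpra3 and Mrgprb5. Mrgpra2b and Mrgpra3 touch the remaining run of 5 or more windows, 5 windows at chr7:54760001-54960000 with 67.4% unique words. Counted by midpoint, the order changed: alpha-defensins had 37.9%, Skint genes 36.4% (4 of 11) and small nucleolar RNAs 34.7%. T cell receptor segments had 26.7%, Mup genes 26.2% and Mas-related receptors 15%.

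These lists differed in how unique their windows are. For genes of the list that touched a never-detected window, the median share of unique words was 2.1% for the T cell receptor segments, 9.94% for the Mup genes, 18% for the small nucleolar RNAs and 19.5% for the alpha-defensins. It was 51.1% for the Mas-related receptors and 84.1% for Skint, where genes outside never-detected windows had 84.8%. The SNORD115 run, 5 windows at chr7:66640001-66840000, touched 97 genes, had 21.8% unique words and a median of 13 copies per word. Predicted genes had 641 of 7869 touching (8.15%) and annotated pseudogenes 268 of 4055 (6.61%).

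Chromosome 14 held most of the members between 3 and 4 Mb. From 3 to 4 Mb, 8% of windows were never detected (38 of 475), against 4.74% from 4 to 8 Mb, 4.21% from 8 to 12 Mb and 3.08% beyond. Leaving out windows with 50% or more unknown bases, these shares were 7.61%, 4.14%, 3.76% and 2.3%. Chromosome 14 supplied 22 of the 38 windows, and 88% of its 25 windows from 3 to 4 Mb were members. Without chromosome 14 the shares over all windows were 3.56% (16 of 450), 1.78%, 3.83% and 3.06%, and those without windows of 50% or more unknown bases 3.34% (15 of 449), 1.45%, 3.35% and 2.24%. In the last 1 Mb of the chromosomes the share was 2.53%.

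The rule over all 74 libraries leaves no calls to test, so it was applied to the libraries of 1 name prefix alone, and detection was measured in the libraries of the other, which that choice did not use. In the 34 f13 libraries, 8596 windows (14.2%) were never detected. In f14 libraries these windows were positive in 4.76% ± 2.87 of cases and all other windows in 5.78% ± 3.25 (SD, n = 40). Windows missed by f13 were the less often positive ones in 36 of 40 f14 libraries, by -1.02 ± 0.801 percentage points on average (two-sided sign-flip permutation test, p = 1e-05, adjusted over both directions 1e-05, the smallest that 100000 resamples can give). Conversely, 7155 windows (11.8%) were never detected in the 40 f14 libraries, and in f13 libraries they were positive in 4.92% ± 2.28 against 6.13% ± 2.79 (SD, n = 34), lower in 33 of 34 libraries (difference -1.21 ± 0.867, sign-flip permutation p = 1e-05, adjusted 1e-05). Of windows missed by f13, 22.5% were also missed by f14, compared with 10.1% of the others, and of those missed by f14, 27% and 12.5%. These windows include 408 with no known base, which no library detected. Among windows free of unknown bases the differences were -0.712 ± 0.755 in f14 and -0.822 ± 0.796 in f13 libraries (permutation p = 1e-05 for each).

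The same comparison was made for windows of unique sequence, and whether its difference departs from that over all windows was not tested. Among windows with no unknown base and 90% or more unique words, those never detected in f13 libraries were positive in 5.73% ± 3.32 of cases in f14 libraries and the others in 5.91% ± 3.23, a difference of -0.183 ± 0.849 with 26 of 40 libraries below 0 (permutation p = 0.182). In the other direction the difference was -0.133 ± 0.915 with 21 of 34 libraries below 0 (permutation p = 0.407). These p-values miss the threshold of 0.05, which does not show that such windows are detected alike. For a window taken on its own, 0 of 74 positive libraries allows a detection of up to 4.05% (3 counts of 74, counting error only). As the members were chosen for their 0, it does not bound their detection.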

How the data were processed

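The authors deposited 1 table of presence calls (0 or 1) for 40 kb windows of mm9 in 74 libraries; per the labels reads were processed with Bowtie2 2.1, and the study's methods name a fixed read threshold per window, without saying whether it covers these libraries as well as the multiplex ones. A call depends on that threshold and on how reads with several matches were treated, which is not given in the sources used here.

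The members and gene lists were chosen with earlier results of these data known. Unknown bases, GC content and 50-base words (taken every 40 bases, or at every base for named runs, and counted on both strands of all 211 sequences of NCBIM37, 189 of them unplaced) described each window, and genes came from GENCODE vM1. Alternative word lengths were 36 and 100 bases. Expected zeros were products over libraries of 1 minus coverage, with coverage genome-wide, as a 2-state chain, per sequence class, or scaled by 10 flanking windows. The word counts, the chain and the permutation test were tested on simulated data; there, flank scaling gave more gaps than the calls held. Windows are not replicates, so tests ran over libraries. Named were the 10 longest runs, the 10 longest with under 10% unknown bases, the chromosomes with the 3 highest and 3 lowest shares, and lists of at least 10 genes with 20% or more touching; unique runs, the SNORD115 run, predicted genes and pseudogenes were added after their values were seen. No repeat annotation was used. Python 3.11.15, NumPy 2.4.6, pandas 2.3.3, SciPy 1.17.1 and Numba 0.67.0 were used.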

Additional observations from a re-analysis of the deposited data

How the results depend on the processing

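Of 111 alternatives, 92 stayed the same, 17 moved, 2 lost the call and 0 reversed. A count moved past 1.5 times, and the share of unique words past the narrow 95% Wilson interval of the words counted. Among the 111, 74 only left out 1 library, and all of these stayed the same. The 17 that moved and the 2 that lost the call were thus among the other 37. Leaving out each library in turn gave 1934 to 2100 never-detected windows. Setting positive windows without a positive neighbour to negative gave 3921 members, 1617 of them in runs of 5 or more. Leaving out windows with 50% or more unknown bases left 370 windows in such runs. With f13 libraries alone there were 8596 members, 3277 single-window gaps and 2243 windows in long runs, and with f14 alone 7155, 3161 and 1488. Expected single-window gaps were 1479 with flank scaling, 686 with independent windows, 559 with the chain and 743 with each sequence class's own detection, which was chosen after seeing the data. Unique words in members were 49% at 36 bases, 58.2% at 100 bases, 78.8% in single-window gaps, 10.7% in runs of 5 or more and 52.4% without the libraries under 1% coverage. In windows with no unknown base and 90% or more unique 50-mers the differences in detection were -0.183 (f14) and -0.133 (f13), past no threshold. No paired analysis was possible because the labels give 1 group. Word uniqueness is no measure of how the authors' aligner placed reads, the cells' genome was not compared with the reference, and calls without reads hide depth, so the causes were not tested.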
